A study of Solanum tuberosum with 8 samples.

Results

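The genes described here are 3 genes of gibberellin metabolism, taken by their identifiers from the 42667 genes in the deposited table: PGSC0003DMG400001823, described in the study's tables as ent-kaurenoic acid oxidase (KAO here), and PGSC0003DMG400027645 and PGSC0003DMG400009021, both described as gibberellin 2-oxidase (GA2ox-a and GA2ox-b here). RNA-Seq was carried out on tubers of 2 potato cultivars, D6 and X2, sampled just after cut-wounding (0 h) and 4, 12 and 24 h later. For D6 there was 1 library at 0 h and 3 libraries at each of 4, 12 and 24 h. For X2, 3 libraries at 0, 4 and 12 h and 2 libraries at 24 h were used, and 1 more column, of uncertain time, was left out. X2 is the tetraploid cultivar Xingjia 2, whose stored tubers were cut transversely and sampled as small blocks running from the skin to the pith, each biological replicate being a mix of several tubers. The sources used here give no such account of D6, so p-values measure the spread between these libraries, which may be technical for D6. The 0 h tubers of each cultivar are the baseline, and no uncut tubers kept for the same times were analysed here, so time since cutting and time in storage at the sampling temperature cannot be told apart.

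Gibberellins are diterpenoid hormones that promote cell elongation and division, and in potato they are known for holding back tuber formation and for promoting sprouting. KAO is a cytochrome P450 that oxidises ent-kaurenoic acid to the first gibberellin of the pathway, and so stands on the synthesis side. Gibberellin 3-beta-dioxygenases make the active hormones at the end of synthesis, while gibberellin 2-oxidases hydroxylate active gibberellins or their precursors and inactivate them. The hormone is perceived by the receptor GID1, which on binding it promotes the loss of the DELLA repressor proteins.

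The pair of 2-oxidases carry the same description, so the quantitative PCR primers that the study designed for each of the 3 genes are shown here, in lower case and from 5′ to 3′, as the sequence at hand for each identifier. Their match to the genome was not checked.
KAO forward: gccttcaagcctggctgg
KAO reverse: gacaacgcctcgtgacca
GA2ox-a forward: ggcgacatcggttgggtt
GA2ox-a reverse: accgcagcccgaatgttt
GA2ox-b forward: atggaaagggaagccgcg
GA2ox-b reverse: taaccaaagggagccgcg
Each primer is 18 bases long, and G and C make up 10 to 12 of its bases. No coordinates are given for the genes, because the gene table used here does not pair these identifiers with positions.

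Levels are given in the FPKM that the authors deposited, a read count scaled for gene length and sequencing depth. The number of reads behind each value was recovered from the steps between low values. The libraries held 24226307 to 35649617 reads on genes in D6 and 29746314 to 44921591 in X2, and 3 reads on a gene of 1 kb corresponded to an FPKM of 0.0668 to 0.124. Libraries of the same group correlated at 0.990 to 0.997 across genes (19 pairs, on log2(FPKM + 1)) and libraries of different groups at 0.831 to 0.981 (191 pairs), where genes are not independent replicates. A Patatin-3-Kuras 1 gene of the tuber storage protein family (PGSC0003DMG401017090) was present in every library, at 0.104 to 5.04 FPKM in D6 and 0.191 to 0.206 FPKM in X2 at 24 h, against 11.8 FPKM in D6 and 6.02 to 29.1 FPKM in X2 at 0 h. A chlorophyll a/b-binding protein gene of green tissue (PGSC0003DMG400007375) stood at 6.40 to 17.9 FPKM in D6 and 5.26 to 5.59 FPKM in X2 at 24 h, against 0.271 FPKM in D6 and at most 0.0951 FPKM in X2 at 0 h. Both genes thus differed between 0 and 24 h, the patatin gene being lower and the chlorophyll-binding gene higher at 24 h, and their part in the results below was not tested. At 12 h the patatin gene spanned 0.287 to 15.2 FPKM in D6, reaching above its D6 0 h level, and 0.241 to 1.64 FPKM in X2. These 2 are the marker genes whose description was at hand, and the study listed both for their large change in these samples. In whole tissue, fewer cells of a type and less RNA per cell cannot be told apart.

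All 3 genes were weakly expressed. KAO was above 0 in 20 of the 21 libraries and peaked at 8.59 FPKM, GA2ox-a was above 0 in 18 libraries and peaked at 4.07 FPKM, and GA2ox-b was above 0 in 19 libraries and peaked at 2.99 FPKM. Over all libraries, 6741 reads fell on KAO, 560 on GA2ox-a and 981 on GA2ox-b. All 3 genes passed the minimum, an average FPKM of 0.1 over the libraries compared, in every comparison below.

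KAO, the synthesis gene, was nearly silent at 0 h and was expressed at every later time in both cultivars. In D6 its level was 0.0515 FPKM in the single 0 h library. It was 8.45, 8.0 and 7.56 FPKM at 4 h, 2.96, 2.10 and 1.61 FPKM at 12 h, and 8.59, 7.84 and 4.22 FPKM at 24 h. The D6 course thus had 2 high times, 4 and 24 h, with a trough at 12 h in which every library lay below every library of the other two. The X2 libraries held 0.0615, 0.0146 and 0 FPKM at 0 h, 3.43, 1.55 and 1.42 FPKM at 4 h, 1.62, 1.20 and 0.888 FPKM at 12 h, and 2.08 and 2.25 FPKM at 24 h. The X2 libraries at 4 and 12 h overlapped, and X2 replicate 1 at 4 h lay above all the other X2 libraries. Ordered by mean, the levels ran D6 4 h (8.0), D6 24 h (6.89), D6 12 h (2.22), X2 24 h (2.16), X2 4 h (2.14), X2 12 h (1.23), D6 0 h (0.0515) and X2 0 h (0.0254). In this order neighbouring groups were free of overlap only between D6 24 h and D6 12 h and between X2 12 h and D6 0 h.

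GA2ox-a, the first inactivation gene, had a transient course. In D6 it stood at 0.0393 FPKM (1 read) in the 0 h library and at 2.26, 1.43 and 1.33 FPKM at 4 h. At 12 h the D6 libraries held 0.236, 0.374 and 0.111 FPKM, and at 24 h they held 0, 0.0387 and 0.0333 FPKM, which is 0, 1 and 1 read. By 24 h the gene was therefore at the detection limit in D6, as at 0 h. In X2 it stood at 0.0783, 0 and 0 FPKM at 0 h, 1.34, 4.07 and 2.52 FPKM at 4 h, 1.68, 1.72 and 2.25 FPKM at 12 h, and 0.258 and 0.332 FPKM at 24 h. The X2 libraries at 4 and 12 h overlapped, and both 24 h libraries lay below all of them. The highest means were those of X2 4 h (2.64), X2 12 h (1.89) and D6 4 h (1.67), which overlapped as neighbours. After a gap came X2 24 h (0.295) and D6 12 h (0.240), which also overlapped, and after a further gap D6 0 h (0.0393), X2 0 h (0.0261) and D6 24 h (0.0240), all resting on 0 to 2 reads a library.

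GA2ox-b, the second inactivation gene, lay below GA2ox-a in mean FPKM at 4 h in D6 and at 4 and 12 h in X2, and above it at 12 and 24 h in D6 and at 24 h in X2. In D6 it stood at 0.0720 FPKM (4 reads) in the 0 h library, at 1.10, 1.61 and 0.948 FPKM at 4 h, and at 0.509, 0.754 and 0.711 FPKM at 12 h. At 24 h the D6 libraries held 0.314, 2.96 and 2.99 FPKM, so that replicate 1 lay below every D6 library of 4 and 12 h while replicates 2 and 3 lay above them. That library had 21 reads on GA2ox-b, against 167 and 196 in replicates 2 and 3, although it was the deepest D6 library and held the highest KAO level of the series. In X2 the level was 0.0179, 0 and 0 FPKM at 0 h, 0.472, 0.331 and 1.10 FPKM at 4 h, 0.949, 0.220 and 0.327 FPKM at 12 h, and 0.389 and 0.532 FPKM at 24 h. The X2 libraries after cutting formed 1 overlapping range from 0.220 to 1.10 FPKM. The order of the means was D6 24 h (2.09), D6 4 h (1.22), D6 12 h (0.658), X2 4 h (0.635), X2 12 h (0.499), X2 24 h (0.460), D6 0 h (0.0720) and X2 0 h (0.00597).

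**Figure D1:**
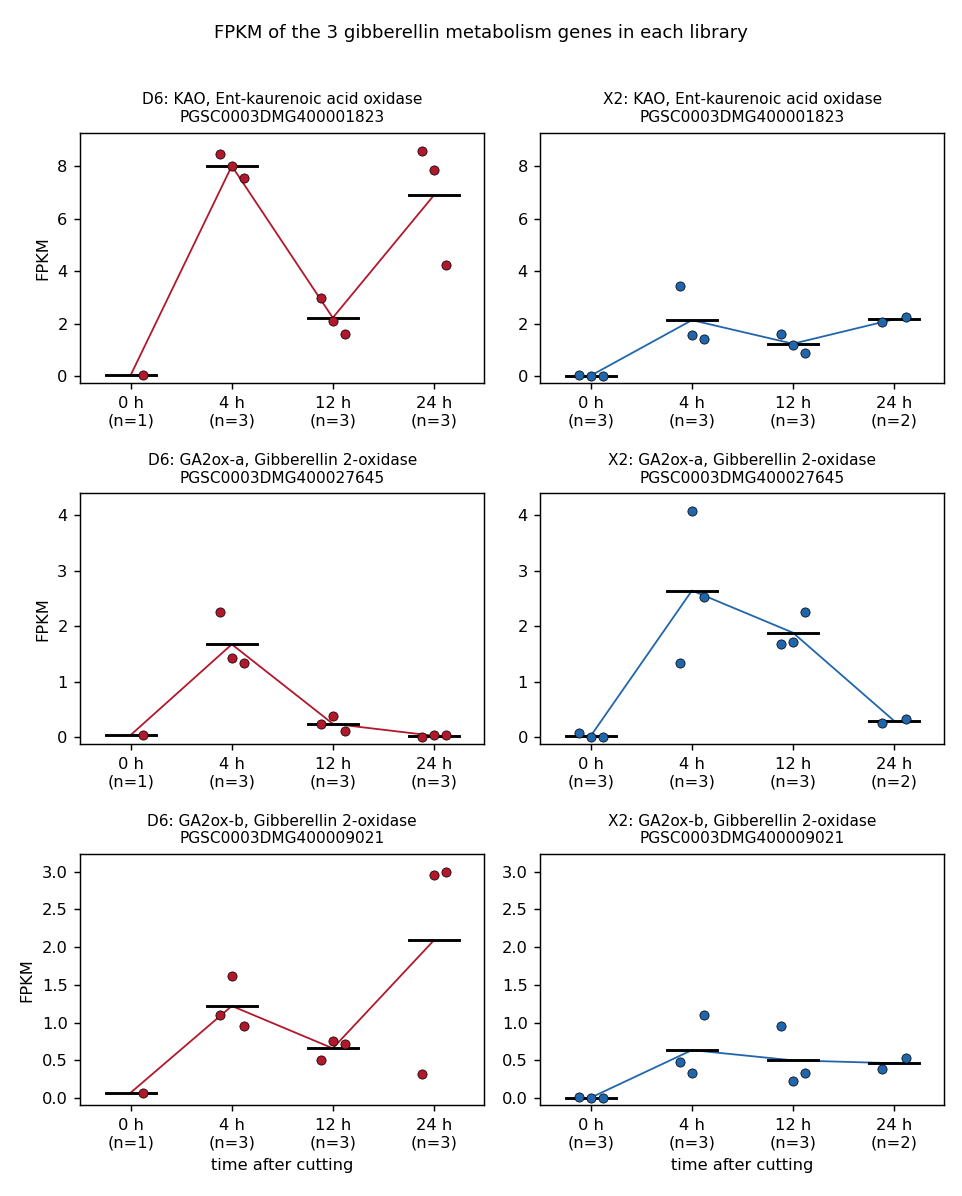
FPKM (vertical axis) of KAO, GA2ox-a and GA2ox-b in each library by time after cutting (horizontal axis, not to scale), with D6 on the left and X2 on the right. Points are libraries and black bars group means, joined by a line. KAO in D6 is high at 4 h (mean 8.0) and 24 h (6.89) with 2.22 between, GA2ox-a declines to 0.0240 FPKM in D6 and 0.295 in X2 by 24 h, and GA2ox-b in D6 at 24 h spans 0.314 to 2.99.

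The first comparison asked how each cultivar responded to cutting, each later time being set against 0 h. Expression was compared by limma on log2(FPKM + 0.1), and a gene was called where its log2FC was 1 or more in size and the unadjusted p was no higher than 0.01. In D6, KAO was up-regulated at all 3 times, with log2FC values of 5.74 ± 0.40 (4 h), 3.90 ± 0.40 (12 h) and 5.46 ± 0.40 (24 h; SE) and limma adjusted p of 1.79e-06, 2.2e-05 and 3.03e-06. GA2ox-a was up-regulated at 4 h (log2FC 3.63 ± 0.52, limma adjusted p = 0.000185). Its log2FC values of 1.21 (12 h) and -0.18 (24 h) did not pass. GA2ox-b was called at 24 h only (log2FC 3.20 ± 0.94, limma adjusted p = 0.0151), while 2.91 at 4 h and 2.12 at 12 h did not pass. With limma-voom on the recovered reads, KAO at 12 h (log2FC 4.98) and GA2ox-b at 24 h (3.85) were not called, although these values were larger. With a pseudocount of 1, GA2ox-b at 24 h (1.36) was not called. All of these D6 values rest on 1 library at 0 h, which is assumed to vary like the other groups. Of the 3 genes, 2 were thus up-regulated in D6 after 4 h, 1 after 12 h and 2 after 24 h, against a background of 25.9%, 26.4% and 25.7% of all genes tested. The GA2ox-b calls turned on D6 24 h replicate 1: without it, all D6 times passed, at a log2FC of 2.91, 2.12 and 4.16. The 24 h call was also lost without D6 4 h replicate 1, without any one of the 12 h replicates 1, 2 and 3, and without 24 h replicate 2 or 3, at a log2FC of 2.71 to 3.20.

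In X2 all 3 genes passed at all 3 times with the pseudocount of 0.1. With a pseudocount of 1, GA2ox-b passed at none of them (log2FC 0.67, 0.54 and 0.54) and GA2ox-a failed at 24 h (0.34). Since the study picked these genes out of its own comparison of the same X2 libraries with 0 h, the X2 calls against 0 h are a description and not independent evidence. For KAO the log2FC values were 4.08 ± 0.38 (4 h), 3.41 ± 0.31 (12 h) and 4.20 ± 0.32 (24 h; SE). GA2ox-a had 4.37 ± 0.43, 4.02 ± 0.30 and 1.70 ± 0.38 at these times, and GA2ox-b had 2.66 ± 0.41, 2.31 ± 0.45 and 2.39 ± 0.30. The study's text describes 1 gibberellin 2-oxidase gene as rising at 4 h and then declining, and another as falling throughout. It does not name their identifiers there, and it draws there on RNA-Seq and quantitative PCR together. In these FPKM values both genes lay above 0 h at each later time in X2. Elsewhere the study lists all 3 identifiers among its genes of largest change, and its discussion describes 3 gibberellin synthesis genes as drastically increased. The cutoff of that list lies above each X2 log2FC given here with the pseudocount of 0.1. The study used DESeq, and the reason for the gap was not tested. Up-regulated genes made up 33.8%, 35.4% and 32.9% of all genes tested at the 3 times, so up-regulation as such was common after cutting. The median log2FC of all genes was 0.19, 0.24 and 0.26 in D6 and 0.44, 0.45 and 0.40 in X2 at the same times. Relative to these medians, KAO, GA2ox-a and GA2ox-b stood at 5.55, 3.44 and 2.72 in D6 at 4 h, and at 3.64, 3.93 and 2.22 in X2. With median-of-ratios scaling, which removes such shifts, no call or direction of the 3 genes changed in any comparison. The GA2ox-a call at 24 h in X2 was also lost with a pseudocount of 0.01 (log2FC 3.87), with limma-voom (3.06), without X2 0 h replicate 2 or 3 (log2FC 1.56 each) and without X2 24 h replicate 1 (log2FC 1.83), and without X2 24 h replicate 3 the gene was under the minimum and not tested.

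Because the fitted log2FC of genes near 0 depends on the pseudocount of 0.1, the summed reads were also set side by side. KAO had 2095, 715 and 2261 reads in the D6 groups of 4, 12 and 24 h, against 5 reads in the D6 0 h library. Per read sequenced this is 155 times the 0 h level at 4 h (95% exact interval 66.3 to 477), 43.6 times at 12 h (18.6 to 135) and 133 times at 24 h (56.9 to 410). In X2, KAO had 688, 495 and 474 reads at the later times against 8 at 0 h, or 94.7 times (47.8 to 220), 55.6 times (28.0 to 130) and 94.9 times (47.8 to 221). GA2ox-a had 113 reads at 4 h in D6 against 1 read at 0 h, a ratio of 41.8 with an interval of 7.35 to 1664. In X2 it had 216 reads at 4 h against 2 reads at 0 h, a ratio of 119 (32.5 to 989). For GA2ox-b the ratio at 4 h was 16.8 (6.46 to 62.4) in D6, from 182 against 4 reads, and 128 (22.5 to 5090) in X2, from 116 reads against 1 read. These intervals cover counting error only, and the wide upper bounds show that the 0 h level of both 2-oxidases was not measured precisely at this depth.

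The course after cutting was then followed without the 0 h libraries. The choice of the genes also used the X2 libraries of 4, 12 and 24 h, so changes in X2 are not independent of it. GA2ox-a was highest in X2 at 4 and 12 h, from which its falls to 24 h in X2 are measured. Between 4 and 12 h in D6, KAO fell by 1.84 ± 0.22 (SE) on the log2 scale (limma adjusted p = 0.000342) and GA2ox-a fell by 2.42 ± 0.38 (limma adjusted p = 0.00122). The log2FC of GA2ox-b was -0.78 ± 0.29, which was not called. Thus 2 of the 3 genes were called, where 25.7% of all genes tested were. In X2 the same interval gave a log2FC of -0.67 for KAO, -0.35 for GA2ox-a and -0.35 for GA2ox-b, and 0 of the 3 genes were called by limma, where 22.8% of all genes were. At an unadjusted p under 0.05, and with limma-voom on the recovered reads, the number in X2 was likewise 0. The sign for GA2ox-a turned without X2 4 h replicate 2 (log2FC 0.02), and that for GA2ox-b without X2 4 h replicate 3 (0.08) or X2 12 h replicate 2 (0.01).

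Between 12 and 24 h, KAO rose again in D6 (log2FC 1.57 ± 0.31, limma adjusted p = 0.0074). The log2FC of GA2ox-a in D6 was -1.39 ± 0.42, just short of the call at an unadjusted limma p of 0.0106, and that of GA2ox-b was 1.07 ± 0.72. Hence 1 of the 3 genes was called in D6, where 10.2% of all genes were. GA2ox-a passed without D6 12 h replicate 3 (log2FC -1.70), and GA2ox-b passed without D6 24 h replicate 1 (log2FC 2.04, limma adjusted p = 0.00417). In X2, GA2ox-a fell by 2.32 ± 0.24 on the log2 scale (limma adjusted p = 0.000697), and of the 23267 genes tested 61 had a more negative log2FC. KAO had a log2FC of 0.80 ± 0.26 and GA2ox-b one of 0.09 ± 0.52 in X2. So 1 of the 3 genes was called, where 12.0% of all genes were, and this held without each library in turn.

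Over the whole span, 24 h against 4 h, GA2ox-a fell by 3.81 ± 0.32 on the log2 scale in D6 (limma adjusted p = 4.72e-05) and fell by 2.67 ± 0.44 in X2 (limma adjusted p = 0.00174). In reads, D6 had 2 at 24 h against 113 at 4 h, which is 0.0141 times the 4 h level (95% exact interval 0.00169 to 0.0521), and X2 had 17 at 24 h against 216 at 4 h, or 0.114 times (0.0654 to 0.188). KAO and GA2ox-b were not called in either cultivar: the log2FC was -0.28 and 0.29 in D6 and 0.13 and -0.26 in X2. The share of all genes called was 33.9% in D6 and 34.4% in X2, so 1 of 3 genes is near the background and the same count in both. The X2 call for GA2ox-a was lost without X2 24 h replicate 1 (log2FC -2.54), which leaves that group with 1 library, and with limma-voom on the recovered reads (log2FC -2.79). Without D6 24 h replicate 1, GA2ox-b was called in D6 as well (log2FC 1.25).

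The 2 cultivars were compared at matched times, each value being D6 relative to X2. The genes were chosen on these X2 libraries, so the differences are not independent of that choice. At 4 h, KAO was higher in D6, at 8.0 ± 0.443 FPKM in D6 and 2.14 ± 1.12 FPKM in X2 (SD, n = 3 each). The log2FC was 1.97 ± 0.31 (limma adjusted p = 0.0021), and all 3 D6 libraries lay above all 3 X2 libraries. GA2ox-a and GA2ox-b had a log2FC of -0.54 ± 0.40 and 0.95 ± 0.41 and were not called. The GA2ox-a libraries overlapped between cultivars. Hence 1 of the 3 genes was called, where 19.4% of all genes were. The median log2FC of all genes was -0.14 here, and relative to it KAO stood at 2.10, GA2ox-a at -0.40 and GA2ox-b at 1.09. Without X2 4 h replicate 3, GA2ox-b was called too (log2FC 1.38).

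At 12 h, the cultivars differed in GA2ox-a, which averaged 0.240 ± 0.132 FPKM in D6 and 1.89 ± 0.315 FPKM in X2 (SD, n = 3 each). The log2FC was -2.61 ± 0.32 (limma adjusted p = 0.000904), the ranges did not overlap, and of the 23334 genes tested 304 had a more negative log2FC. X2 at 12 h is among the groups on which the gene was chosen, so this is a description. KAO had a log2FC of 0.79 ± 0.28 and GA2ox-b one of 0.52 ± 0.44. The count was again 1 of 3 genes, where 14.6% of all genes were called, and it was the same without each library in turn.

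At 24 h, KAO averaged 6.89 ± 2.34 FPKM in D6 (SD, n = 3) and 2.16 ± 0.122 FPKM in X2 (SD, n = 2), a log2FC of 1.56 ± 0.31 (limma adjusted p = 0.0156). GA2ox-a was lower in D6, with 2 reads in 3 libraries against 17 reads in the 2 X2 libraries, a log2FC of -1.68 ± 0.36 (limma adjusted p = 0.0198). Its ratio of reads was 0.0779 (95% exact interval 0.00873 to 0.328), and with a pseudocount of 1 its log2FC of -0.34 was not called. GA2ox-b had a log2FC of 1.5 ± 0.88 and was not called. So 2 of the 3 genes were called, where 13.1% of all genes were. The KAO call was lost without X2 24 h replicate 1 (log2FC 1.51) and without X2 24 h replicate 3 (log2FC 1.62), each of which leaves 1 X2 library. GA2ox-a could not be tested without X2 24 h replicate 3, since its mean FPKM then fell below the minimum, and GA2ox-b was called without D6 24 h replicate 1 (log2FC 2.47, limma adjusted p = 0.00463).

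Whether the change itself differed between cultivars was tested as a difference of differences. Its X2 part again uses libraries on which the genes were chosen. From 4 to 12 h, GA2ox-a fell more in D6 than in X2, with a difference of -2.07 ± 0.55 on the log2 scale (limma adjusted p = 0.0348), and this held without each library in turn, at -2.44 to -1.67. The call was lost with a pseudocount of 1, at -0.82 (limma adjusted p = 0.129). KAO had -1.17 ± 0.45 and GA2ox-b -0.43 ± 0.65, and neither was called. The count was 1 of 3 genes, where 6.85% of all genes were called. KAO was called without X2 4 h replicate 1 (log2FC -1.56), the X2 library in which it was highest, and with a pseudocount of 1 (log2FC -1.06), so that the count of 1 then stood for KAO in place of GA2ox-a. From 12 to 24 h the differences were 0.77 ± 0.45 for KAO, 0.93 ± 0.47 for GA2ox-a and 0.99 ± 1.04 for GA2ox-b. None of the 3 passed in limma, at this threshold or at an unadjusted p under 0.05, or in limma-voom on the recovered reads, and 3.95% of all genes were called.

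**Figure D2:**
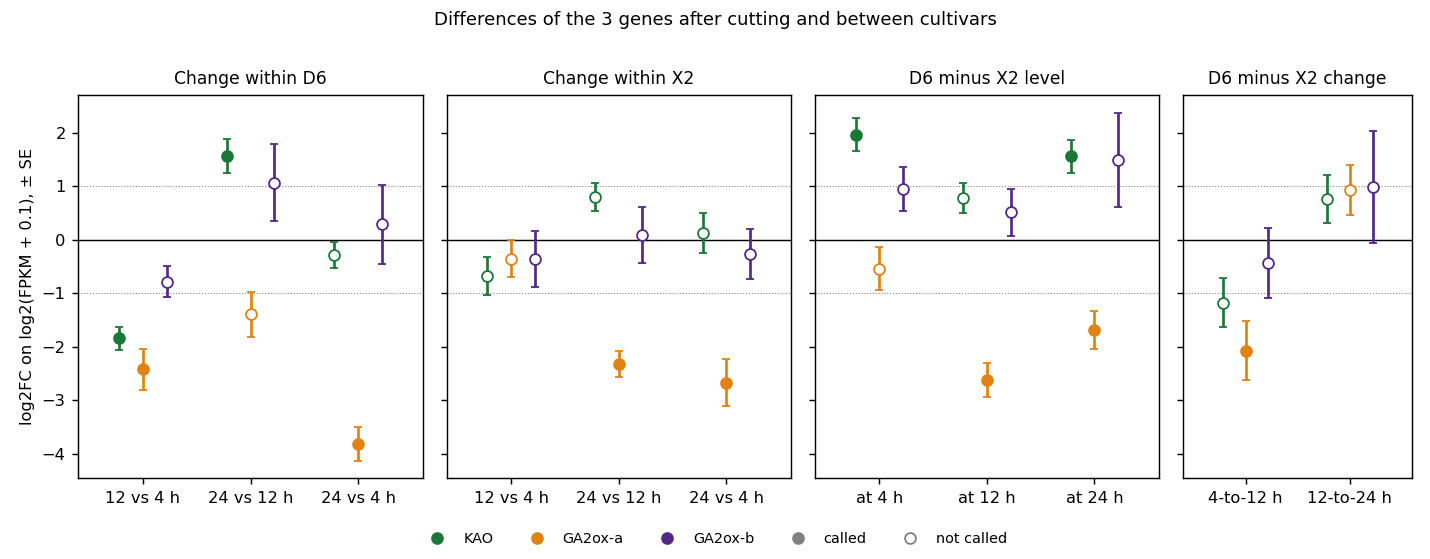
The log2FC of KAO, GA2ox-a and GA2ox-b on log2(FPKM + 0.1) (vertical axis, ± SE from limma) for changes within D6, changes within X2, D6 minus X2 at each time, and D6 minus X2 in the change. Filled points were called and dotted lines mark a log2FC of 1 and -1. GA2ox-a is negative in every comparison but the last, reaching -3.81 in D6 from 4 to 24 h, and KAO is called higher in D6 at 4 h (1.97) and 24 h (1.56).

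The mix of the 2-oxidases was described by the share that GA2ox-a held in their summed FPKM. In D6 this share was 67.2, 46.9 and 58.4% at 4 h, then 31.7, 33.2 and 13.5% at 12 h, and by 24 h it was 0, 1.29 and 1.10%, so that the ranges of the 3 times did not overlap. In X2 it was 74.0, 92.5 and 69.5% at 4 h, then 64.0, 88.7 and 87.3% at 12 h, and 39.9 and 38.4% at 24 h, the 4 and 12 h ranges overlapping. At each matched time every D6 library had a lower share than every X2 library. The summed FPKM itself averaged 2.89 ± 0.557 at 4 h, 0.898 ± 0.203 at 12 h and 2.11 ± 1.56 at 24 h in D6 (SD, n = 3 each). In X2 it averaged 3.28 ± 1.33 and 2.38 ± 0.383 at 4 and 12 h (SD, n = 3 each) and 0.755 ± 0.153 at 24 h (SD, n = 2). Shares are given without a test, and the D6 share at 24 h in replicate 1 rests on 0 of 21 reads.

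**Figure D3:**
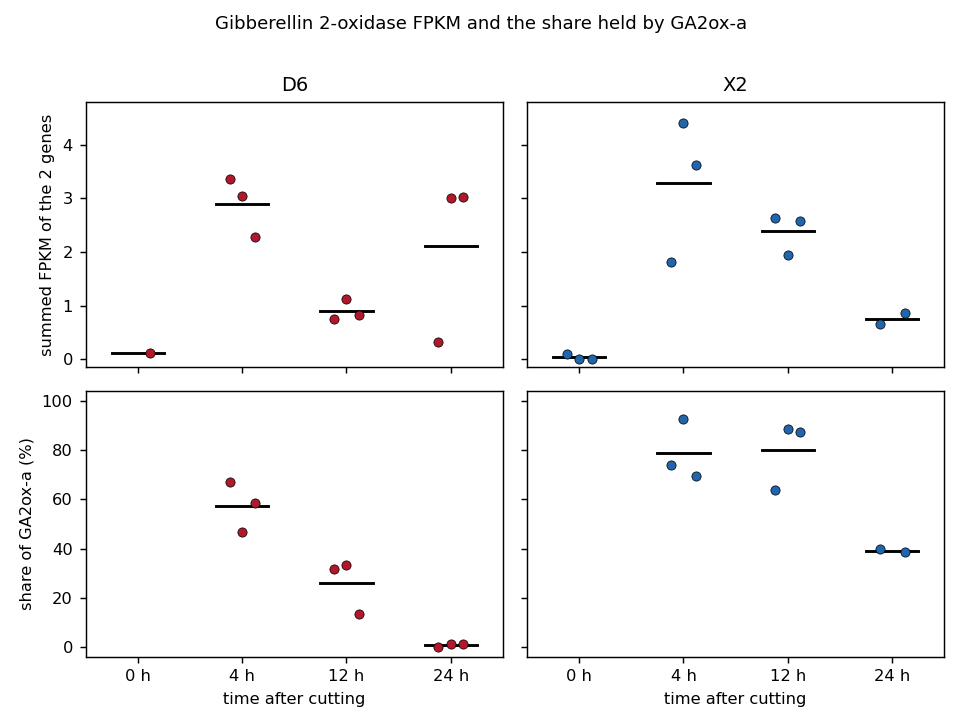
Summed FPKM of the 2 gibberellin 2-oxidase genes (top) and the percentage of it held by GA2ox-a (bottom) by time after cutting, D6 on the left and X2 on the right. Points are libraries and bars group means, and shares at 0 h are left out because the sum rests on at most 5 reads. By 24 h the mean share is 0.798% in D6 and 39.2% in X2.

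KAO and GA2ox-b resembled each other more than either resembled GA2ox-a. Over the 21 libraries, Pearson's r of log2(FPKM + 0.1) was 0.85 between KAO and GA2ox-b, 0.36 between KAO and GA2ox-a and 0.30 between GA2ox-a and GA2ox-b. These values are descriptions, since the libraries fall into 8 groups and share the low level at 0 h. Of the 20352 genes compared with KAO, 1006 were more like it than GA2ox-b was, and 9154 were more like it than GA2ox-a was. Among genes averaging 0.5 FPKM or more, the 5 most like KAO were PGSC0003DMG400031317, PGSC0003DMG400014303, PGSC0003DMG400007976, PGSC0003DMG400006353 and PGSC0003DMG400007665, at r = 0.96 to 0.97. The last of these had mean FPKM of 6.15, 110, 23.7 and 61.5 in D6 at 0, 4, 12 and 24 h and 1.65, 23.9, 14.0 and 19.2 in X2, with the trough at 12 h in both. PGSC0003DMG400014303 had the trough in D6 (0.596, 38.6, 15.1 and 26.3) but not in X2 (0.549, 8.11, 10.1 and 8.5).

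The 5 genes most like GA2ox-a were PGSC0003DMG400026250, PGSC0003DMG400008432, PGSC0003DMG400014542, PGSC0003DMG400014646 and PGSC0003DMG400029688, at r = 0.93 to 0.94. Of these, PGSC0003DMG400008432 averaged 2.26, 15.7, 9.30 and 3.25 FPKM in D6 and 2.78, 21.1, 15.4 and 6.35 FPKM in X2 at 0, 4, 12 and 24 h, a transient course as well. Those most like GA2ox-b were PGSC0003DMG400011200, PGSC0003DMG400009037, PGSC0003DMG400012241, PGSC0003DMG400004818 and PGSC0003DMG400025336, at r = 0.92 to 0.93. Only PGSC0003DMG400009037 among these 15 genes has a description in the sources used here, multidrug resistance protein of the ABC transporter family.

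The other gibberellin genes with a description were 3: the receptor gene GID1 (PGSC0003DMG400022492), a gibberellin 3-beta-dioxygenase gene (PGSC0003DMG400023714, GA3ox here) and a gibberellin regulated protein gene (PGSC0003DMG400001227, GA-regulated here). The study listed them for a large change in these X2 samples, so their increase against 0 h is no independent evidence. Comparisons below that use the X2 libraries draw on the same values and are likewise descriptions. Against 0 h, 1 of the 3 was up-regulated in D6 at 4 h, 1 at 12 h and 3 at 24 h, and in X2 1 of the 2 that were tested at 4 h, 2 of 2 at 12 h and 3 of 3 at 24 h. The background of up-regulated genes was 25.9%, 26.4% and 25.7% in D6 and 33.8%, 35.4% and 32.9% in X2, so 1 of 3 is near it.

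GA3ox, the last step of synthesis, appeared late. In D6 its FPKM was 0.0717 at 0 h and averaged 0.0678 ± 0.117 at 4 h, 0.112 ± 0.0721 at 12 h and 1.07 ± 0.476 at 24 h (SD, n = 3 each after 0 h). In X2 it had 1 read in all at 0 h, 1 at 4 h and 6 at 12 h, against 70 and 36 reads in the 24 h libraries. Between 12 and 24 h it rose in both cultivars, with a log2FC of 2.45 ± 0.43 in D6 and 2.89 ± 0.43 in X2 and limma adjusted p of 0.00465 and 0.00282. Its large X2 change, for which the study listed it, lay at 24 h, so the X2 rise is a description and not independent evidence. At 24 h the D6 minus X2 log2FC was 0.28 ± 0.46. GA3ox and KAO were thus both above their 12 h level in D6 at 24 h, as was GA2ox-b in 2 of the 3 libraries, while GA2ox-a was at 0 to 1 read in each. The summed FPKM of the 2-oxidases in D6 averaged 2.11 at 24 h, against 0.898 at 12 h.

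GID1 had mean FPKM of 0.462, 1.37, 1.67 and 3.57 in D6 and 0.0242, 0.740, 1.57 and 3.02 in X2 at 0, 4, 12 and 24 h. At 0 h it had 27 reads in the D6 library, against 2, 2 and 1 in the X2 libraries. Its D6 minus X2 log2FC values were 0.72 ± 0.35 (4 h), 0.00 ± 0.31 (12 h) and 0.24 ± 0.17 (24 h), none of them called.

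Of these 6 genes, the GA-regulated gene had the largest differences of change between the cultivars. It averaged 8.17 ± 2.19, 10.6 ± 0.949 and 5.85 ± 1.20 FPKM in D6 at 4, 12 and 24 h (SD, n = 3 each). In X2 it averaged 0.265 ± 0.288 and 2.64 ± 0.908 FPKM at 4 and 12 h (SD, n = 3 each) and 18.8 ± 5.22 FPKM at 24 h (SD, n = 2). It was higher in D6 at 4 h (log2FC 4.75 ± 0.51, limma adjusted p = 0.000445) and 12 h (2.0 ± 0.22, limma adjusted p = 0.000491) and lower in D6 at 24 h (-1.66 ± 0.23, limma adjusted p = 0.00459). The difference of differences was -2.74 ± 0.60 from 4 to 12 h and -3.66 ± 0.35 from 12 to 24 h, with limma adjusted p of 0.0153 and 0.00185. Among the 23897 genes tested for the second, 12 had a more negative value. The gene was highest in X2 at 24 h, a group that the study's listing used. These differences are therefore not independent of that listing. At 4 h the X2 libraries held 2, 14 and 3 reads on the gene, so values that use them depend on the pseudocount of 0.1. The log2FC of this gene was not tried under the alternatives.

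**Figure D4:**
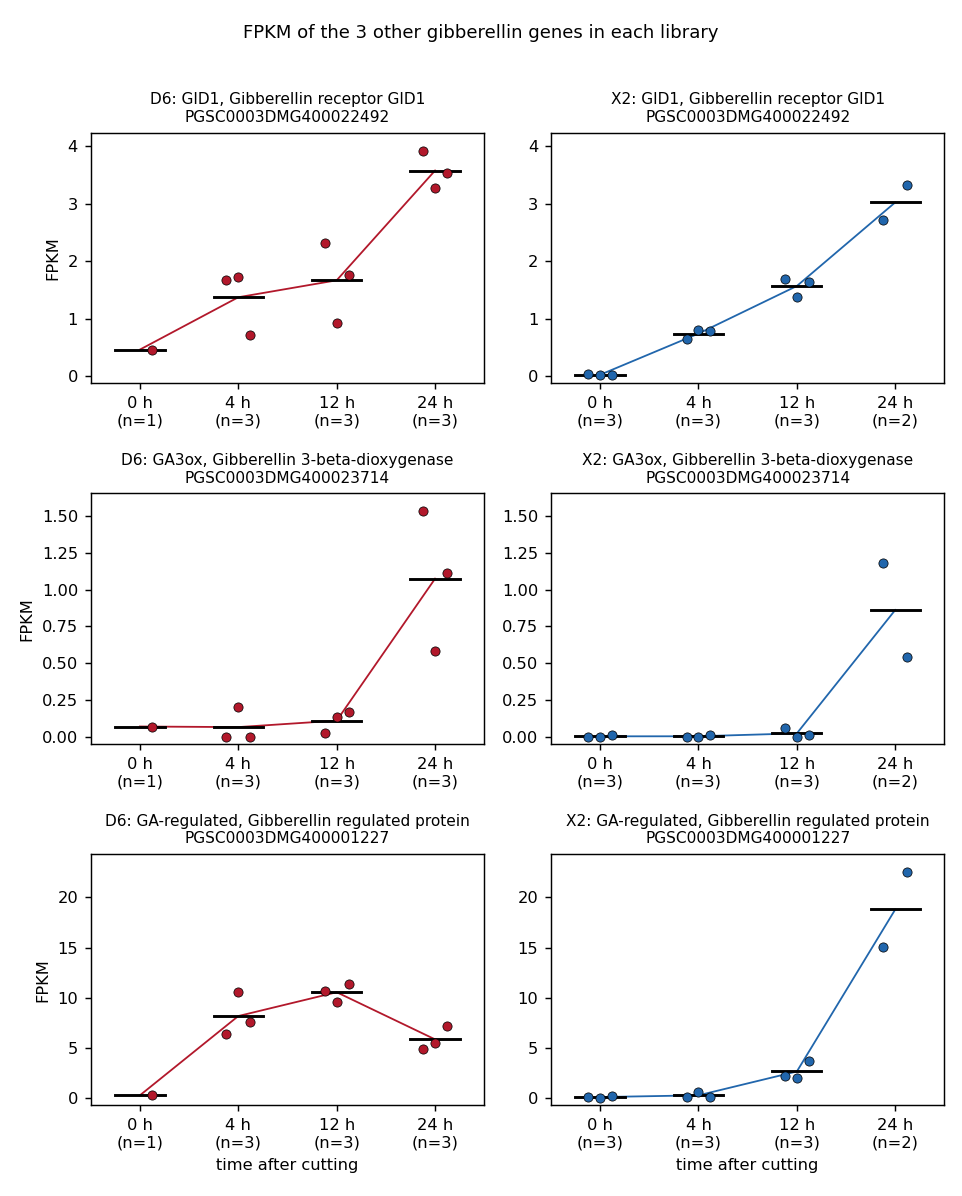
FPKM (vertical axis) of GID1, GA3ox and the GA-regulated gene in each library by time after cutting, D6 on the left and X2 on the right, with points for libraries and bars for group means. GA3ox is near 0 until 24 h in both cultivars (means 1.07 in D6 and 0.861 in X2), and the GA-regulated gene peaks at 12 h in D6 (10.6) and at 24 h in X2 (18.8).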

How the data were processed

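RNA-Seq libraries of D6 and X2 tubers were used. The authors removed adapter and low-quality reads, mapped with HISAT to SolTub_3.0, counted with featureCounts and deposited the values as FPKM. The submitters' processing notes also name CASAVA 1.8, Bowtie 0.12.2 and a mouse build, and the role of these was not established. How reads fitting several gene copies were assigned is not given in the sources used here. Columns were assigned by name. In the table, 2 columns carry the name of replicate 2 of X2 at 4 h. The first was used, which rests also on its place, and values without this library are among the alternatives. The other (1 column) stands in the place of X2 at 24 h and was left out, since its name does not say so. Whether it is replicate 2 of X2 at 24 h was not established, so X2 at 24 h has 2 libraries here.

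Reads were recovered for 29390 genes above 0 in at least 3 libraries, as whole multiples of the step of 1 read, within 0.002. They added up to at least 99.9973% of the reads on genes of each library. Of 3507 genes predicted by the authors and listed with a length, 1601 gave that length and 1906 a shorter one. The reason was not tested. Floors are 3 reads and intervals 95% Clopper-Pearson.

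Tests used limma 3.58.1 in R 4.3.3 (lmFit, eBayes with trend) on log2(FPKM + 0.1), keeping genes that averaged 0.1 FPKM or more in the libraries fitted, without a replicate block, and Benjamini-Hochberg adjustment over all genes tested. Calls used |log2FC| of at least 1 and unadjusted p of at most 0.01. Each fit used the groups compared. D6 against 0 h used all D6 libraries in 1 model. There were 17 comparisons. limma was tested on simulated data. Tables and figures used Python 3.11.15, scipy 1.17.1 and matplotlib 3.10.9.

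Alternatives were median-of-ratios scaling, no FPKM filter or one of 0.5, pseudocounts of 1 and 0.01, all libraries in 1 model, adjusted p of at most 0.05, limma-voom on recovered reads, a replicate block and leaving out single libraries. The members, gene lists and tests were chosen with earlier results of these data known. Named genes are the 3 members, the other gibberellin genes with a description, and the 5 genes most like each member by Pearson's r. The quantitative PCR values were not used here.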

Additional observations from a re-analysis of the deposited data

Results flagged for a closer look

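The change from 4 to 12 h differed between the cultivars for GA2ox-a (PGSC0003DMG400027645), at -2.07 for D6 minus X2 on the log2 scale (limma adjusted p = 0.0348), with the libraries at 0.111 to 0.374 FPKM in D6 and 1.68 to 2.25 FPKM in X2 at 12 h. With a pseudocount of 1 the value was -0.82 and was not called (limma adjusted p = 0.129). The change also differed for the GA-regulated gene (PGSC0003DMG400001227), at -2.74 from 4 to 12 h and -3.66 from 12 to 24 h (limma adjusted p of 0.0153 and 0.00185). Its X2 libraries at 4 h held 2, 14 and 3 reads, and its log2FC was not tried under the alternatives. The study listed both genes on these X2 libraries, so these differences are not independent of that choice. At 24 h against 0 h, GA2ox-a lay below the 0 h level in every D6 library (log2FC -0.18) and above it in every X2 library (log2FC 1.70). That difference was not tested, and the D6 values rest on 0 to 1 read in each library at both times.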

How the results depend on the processing

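Across the alternatives, 742 of the members' log2FC values kept direction and side of the threshold, 26 lost the call, 17 gained it and 18 changed sign, none of these 18 from a called value. With median-of-ratios scaling all 77 results kept their direction and call. A mean FPKM of at least 0.5 or a pseudocount of 1 left 1 member called in X2 at 24 h against 0 h (3 in the reported test) and in D6 against X2 at 24 h (2), and lowered the called gibberellin genes in X2 to 2 at 4 h (from 4) and 3 at 24 h (from 6). With the filter of 0.5 the genes lost lay below it and were not tested, while with the pseudocount they were tested and not called. With the higher pseudocount, D6 at 24 h against 0 h had 1 member and 3 gibberellin genes called (2 and 5). Without a filter, 1 member was called there. In D6 from 12 to 24 h, 2 members (1) were called without a filter, with all libraries in 1 model and with adjusted p, and 5 gibberellin genes were called in D6 at 4 h against 0 h (3) with all libraries in 1 model. limma-voom on recovered reads called 0 members in D6 at 12 h (1; KAO lost at 4.98) and 1 at 24 h (2; GA2ox-b lost at 3.85) against 0 h, and 0 in X2 from 4 to 24 h (1; GA2ox-a lost at -2.79). Where the cause of such a change is not the smaller number of genes or libraries, the cause was not tested.

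No source says that a replicate number marks a shared tuber or batch. Of 24 same-numbered pairs of libraries within a cultivar, 11 deviated together at a correlation above 0.1 (median 0.07, range -0.16 to 0.27), against 7 of 48 other-numbered pairs (median -0.05). Not every pair passed, so no block was used in the reported tests. Weak or partial pairing could also fail this rule, so whether the numbers pair the libraries stayed undecided. With a replicate block, 2 members were called in the 4-to-12 h difference between cultivars (1), KAO joining at -1.17. GA2ox-b gained the call in D6 at 4 h against 0 h (log2FC 3.17), and GA2ox-a lost it in X2 at 24 h against 0 h (1.56). The block turned GA2ox-b in X2 from 12 to 24 h to -0.27, as a pseudocount of 1 did to -0.01, and KAO in X2 from 4 to 24 h to -0.03. GA2ox-a in the 12-to-24 h difference turned to -0.39 with a pseudocount of 0.01 and to -0.19 with limma-voom.

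With each library left out, the members called ranged from 1 to 2 in D6 at 12 h and at 24 h against 0 h, from 12 to 24 h and from 4 to 24 h, in D6 against X2 at 4 h and in the 4-to-12 h difference, from 0 to 1 in X2 from 4 to 24 h, and from 0 to 3 in D6 against X2 at 24 h. The number ranged from 2 to 3 in D6 at 4 h and in X2 at 24 h, each against 0 h. Signs that changed lay in these ranges: in X2 from 4 to 12 h, -0.75 to 0.02 for GA2ox-a and -0.85 to 0.08 for GA2ox-b; in X2 from 12 to 24 h, -0.27 to 0.59 for GA2ox-b; from 4 to 24 h, -0.09 to 0.51 for KAO and -0.58 to 0.16 for GA2ox-b in X2, -0.47 to 0.04 for KAO and -0.20 to 1.25 for GA2ox-b in D6; and -0.86 to 0.07 for GA2ox-b in the 4-to-12 h difference. The 2-oxidases at 0 h, and GA2ox-a in D6 at 24 h, are limited by depth.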
